A study of Mus musculus with 5 samples.

Results

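Secreted factors that support neurons were read from cultured mouse glia and neural precursors as a set of 9 genes chosen by name, namely Gdnf, Nrtn, Bdnf, Ntf3, Manf, Cdnf, Igf1, Igf2 and Mdk. Of these, 8 were matched to a row among the 20178 transcripts of the deposited tables, and Igf1 is not analysed here because none of its RefSeq accessions searched was among the rows. The rule names genes by function and uses no measured value, but the genes were chosen with earlier results of these data known. RNA-seq had been done on 5 libraries with 1 library per condition and no replicate library, so no test of the conditions was possible. The study asked how Nurr1 and Foxa2, a pair of transcription factors, alter the properties of glia from the ventral midbrain (VM), the region that holds dopamine neurons.

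All libraries came from primary cells of ICR mice, harvested at passage 2. VM astrocytes and cortical (Ctx) astrocytes, which the labels call astrocyte progenitor cells, were cultured from pups of postnatal day 5, and Ctx neural precursor cells (NPCs) from embryos of embryonic day 12. The untransduced VM library received no virus. The Cont library was VM astrocytes with an empty lentivirus, and the N + F library was VM astrocytes with lentiviruses that carry Nurr1 (mouse cDNA) and Foxa2 (rat cDNA), each driven by the CMV promoter. The Ctx libraries received no virus. The labels contradict each other on Cont and N + F. Their titles, which the series description repeats, give the assignment used here, and their treatment entries give the reverse. Under the treatment entries, N + F against Cont would have the opposite sign throughout, and the comparisons of each with the untransduced library would be exchanged.

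Glial cells release these factors, and neurons read them through dedicated receptors. GDNF and neurturin (Nrtn) bind GFRα coreceptors and signal through the tyrosine kinase RET, and both are known for keeping dopamine neurons of the midbrain alive. BDNF and neurotrophin-3 (Ntf3) signal through Trk kinases, and MANF and CDNF are small proteins of the endoplasmic reticulum (ER) that are secreted when protein folding there is disturbed. IGF2 acts on the IGF1 and insulin receptors while binding proteins hold it in the medium, and midkine (Mdk) is a heparin-binding growth factor abundant in the embryo.

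Levels are given in 2 units. CPM, the read count scaled to the library total, compares a gene between libraries, and FPKM, which is scaled to transcript length too, compares genes with each other. Library totals lay between 20010818 and 22554835 reads. A count of 3 reads, the smallest taken as measurable, is a CPM of 0.133 to 0.150. Ratios between libraries are log2 ratios of counts scaled to library totals with 0.5 reads added, and a gene was called at 2-fold if its FPKM exceeded 1 in either library. The interval printed with each ratio is the exact 95% interval of Clopper and Pearson. Only counting error enters it, not the variation of cultures, and PCR copies among the reads are not separate molecules.

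The virus genes were read first. Nr4a2, the gene of Nurr1, had 183 reads in N + F, 53 in Cont, 81 in untransduced VM, 106 in Ctx astrocytes and 93 in Ctx NPCs. Foxa2 had 216, 15, 68, 1 and 0 reads in the same order, and the 0 reads allow a CPM of up to 0.150. Both were highest in N + F, the order that the titles give, at a CPM of 9.0 and 10.6. Untransduced VM, without virus, had a CPM of 3.8 and 3.2. The conflict between the labels was not tested further. The Cont library stood apart from the other VM libraries over all genes. N + F and Cont differed by 2-fold in 19.3% of 12701 genes, Cont and untransduced VM in 15.8% of 12703, but N + F and untransduced VM in only 0.99% of 12428. Each difference of N + F from Cont is therefore given beside that of N + F from the untransduced library, which does not use Cont.

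Markers of other cell types were summed in every library. In each, 9 of 10 astrocyte markers had FPKM above 1, and their summed CPM was 1604 to 1929 in the VM libraries, 4198 in Ctx astrocytes and 10544 in Ctx NPCs. Gjb6 was at 0 reads in Cont, with 1 in untransduced VM and 3 in N + F, too few to show a difference. The 12 microglia markers summed to a CPM of 962 in Cont, 240 in untransduced VM, 162 in N + F, 69.3 in Ctx astrocytes and 1.85 in Ctx NPCs, where Trem2 was at 0. Oligodendrocyte markers were 827 in Cont and 350 to 603 in the other astrocyte libraries, where Cnp and Olig1 had the most reads. In N + F against Cont, 8 of 9 tested were lower and none higher (median log2 -3.00). In N + F against untransduced VM, all 8 tested were below 0 and 3 were called lower (median -0.63). All 10 microglia markers tested there were below 0 too, with 1 called (median -0.62). Over all genes, 0.668% were called lower there. The 7 ependymal markers were 66.2 in Cont against 336 in untransduced VM, 320 in N + F, 496 in Ctx astrocytes and 142 in Ctx NPCs. The 12 markers of leptomeningeal fibroblasts, cells of the brain's coverings, summed to 2685 in untransduced VM, 1849 in Cont, 2807 in N + F, 1240 in Ctx astrocytes and 471 in Ctx NPCs, and none was at 0. This sum is carried by collagens, and the median of the list has the other sign within VM, at 0.28 in Cont against untransduced VM (2 lower and 1 higher of 11 tested) and -0.51 in N + F against Cont (1 lower and 3 higher). Dcn, Lum, Col3a1, Aldh1a2, Crabp2, Pdgfra and Slc6a13 (only 15 reads) had their highest VM count in Cont. Col1a1, Col1a2, Ogn, Foxc1 and Islr had their lowest VM count in Cont. Neuron markers summed to 573 to 1200, a sum carried by Stmn2, Gap43 and Map2 in the astrocyte libraries. Of 7 neuron markers tested in Cont against untransduced VM, 4 were higher and none lower (median log2 1.53), such as Nefl (183 against 29 reads) and Snap25 (100 against 17), and in N + F against Cont 4 of 8 were lower and 1 higher (median -1.08). Endothelial and mural markers summed to 102 to 336, neural precursor markers to 6189 to 9107 with Hes5 at 0 in Cont, and proliferation markers to 371 to 442 except in Ctx astrocytes (98.4). Hes5 had only 3 reads in untransduced VM and 3 in N + F, too few to show a difference from Cont. The library labelled Ctx NPCs had all 10 precursor markers above FPKM 1, and each other library had 9. The precursor sum was 6320 in Ctx NPCs and 9107 in Ctx astrocytes, with Vim the largest count in both (68903 and 165148 reads). The sum and the count above FPKM 1 therefore did not single out the library labelled Ctx NPCs. The median FPKM of the list was highest there, at 28.6 against 15.7 to 21.1 in the other libraries. Against Ctx astrocytes, 3 of 10 precursor markers were higher and 1 lower (median log2 0.43, against 0.19 over all genes). Over all genes, 20.1% were higher and 17.9% lower. Hes5 differed most, at 1050 against 20 reads. The library labelled Ctx NPCs also had all 10 oligodendrocyte markers (summed CPM 9406) and all 10 neuron markers above FPKM 1. In whole cultures such as these, fewer cells of a type and less RNA per cell cannot be told apart, and the part of the other cell types in the differences below was not tested.

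**Figure D1:**
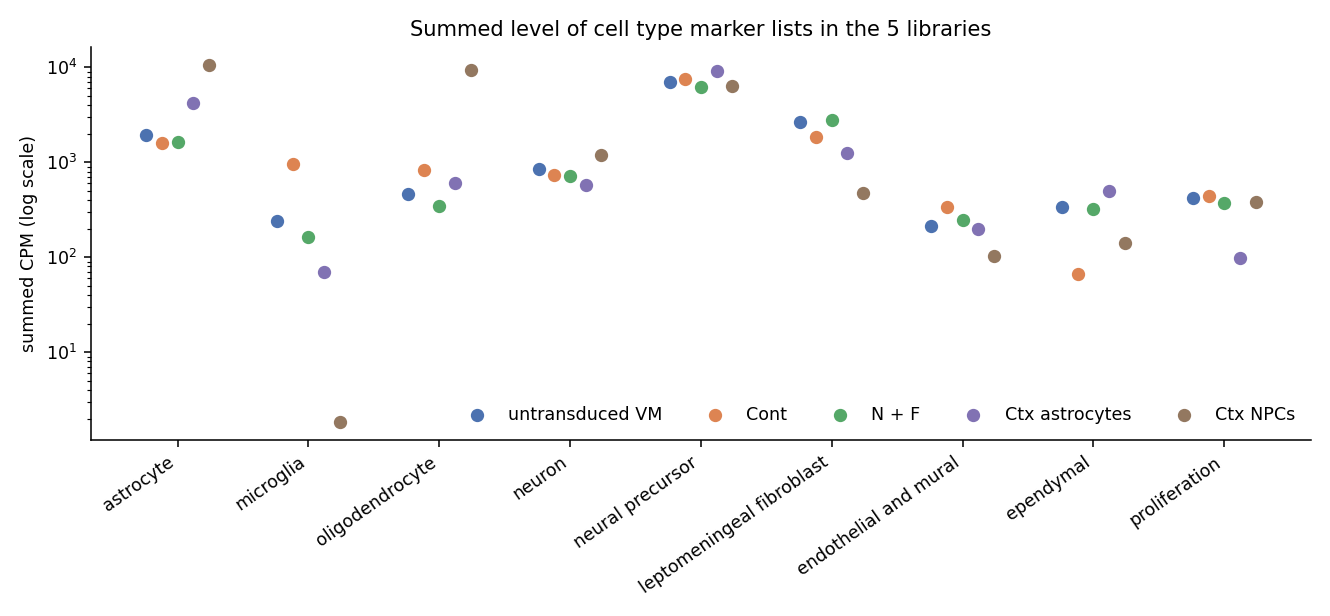
Summed CPM (log scale) of 9 cell type marker lists, with 1 point per library and no replicates. The microglia sum runs from 1.85 in Ctx NPCs to 962 in Cont, and the ependymal sum is lowest in Cont at 66.2.

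Taken per transcript length, midkine and MANF made up most of the RNA of the 8 genes. Trophic ligands outside the set are not in this sum, and some were higher, such as Gdf15 with an FPKM of 244 in untransduced VM. The FPKM of the 8 genes summed to 172 in untransduced VM, 134 in Cont, 161 in N + F, 111 in Ctx astrocytes and 279 in Ctx NPCs. Mdk and Manf together were 61.0% to 68.8% of this sum in the VM libraries, 81.5% in Ctx astrocytes and 94.1% in Ctx NPCs. Igf2 was 17.0% to 21.7% in the VM libraries and below 3% in both Ctx libraries, at 2.83% and 2.46%. FPKM was above 1 for all 8 genes in untransduced VM, for 7 in N + F and in Ctx astrocytes, and for 5 in Cont and in Ctx NPCs. In Cont the genes at or below 1 were Nrtn, Cdnf and Ntf3, and in Ctx NPCs they were Cdnf, Gdnf and Ntf3.

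The genes spread over the libraries to very unequal extents. The ratio of the highest to the lowest library was 99.5-fold for Gdnf (interval 57.9 to 209), 12.8-fold for Ntf3 (4.02 to 136) and 11.1-fold for Igf2 (9.80 to 12.6). It was 8.17-fold for Nrtn, 5.99-fold for Mdk, 3.14-fold for Cdnf, 2.83-fold for Bdnf and 1.56-fold for Manf. The median over the 8 genes was 7.00-fold, and over 13298 expressed genes it was 2.29-fold. Within the 3 VM libraries the medians were 1.62-fold and 1.44-fold.

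**Figure D2:**
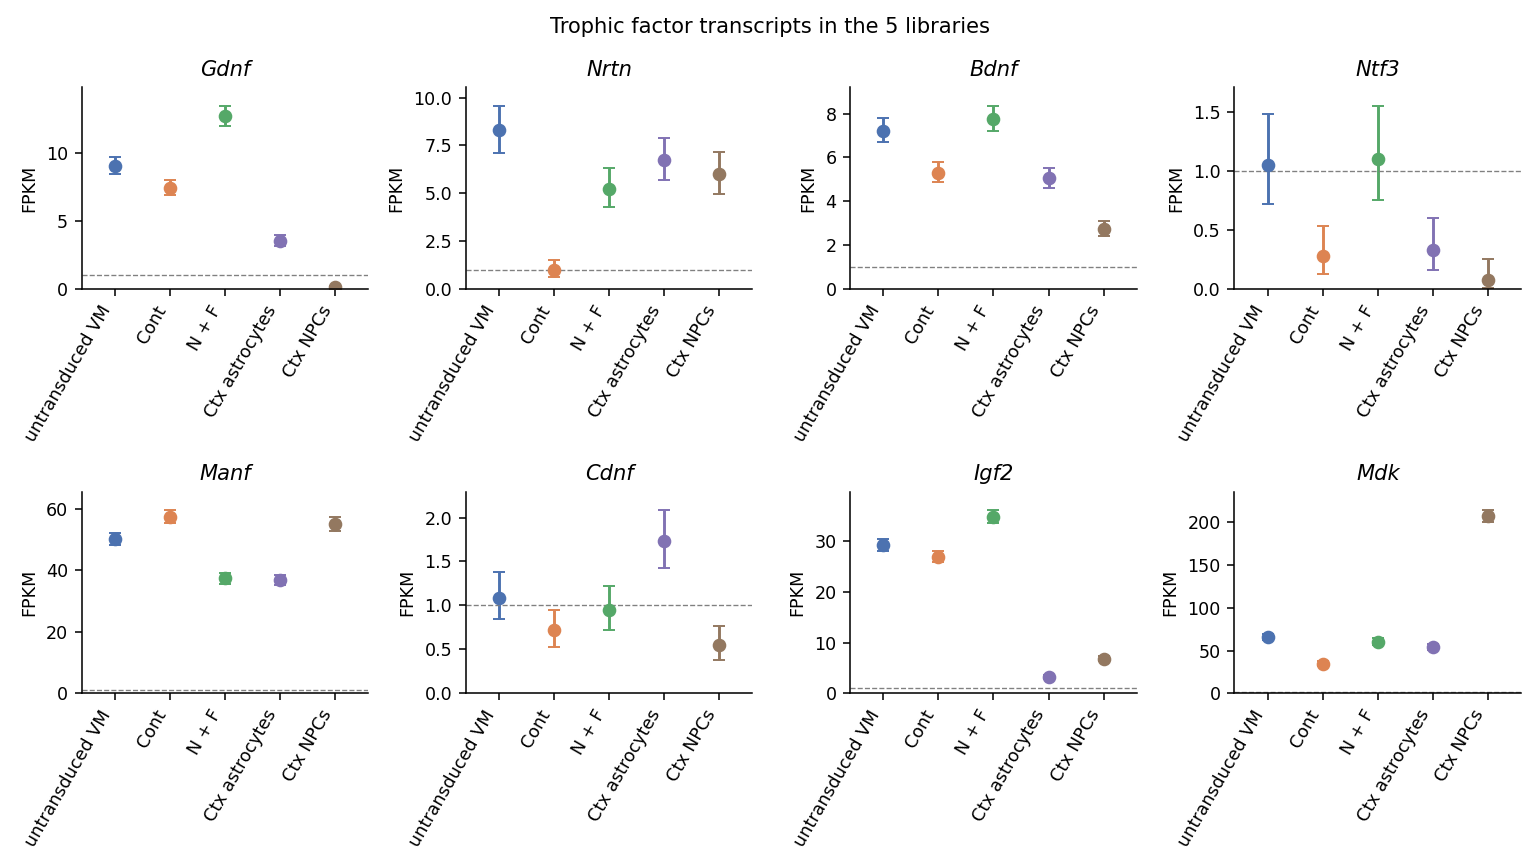
FPKM of the 8 trophic factor genes in the 5 libraries, with an axis from 0 for each gene. Points are single libraries, bars are exact 95% counting intervals and the dashed line is an FPKM of 1. Gdnf is near 0 in Ctx NPCs, Nrtn is lowest in Cont, Igf2 is high in the 3 VM libraries and Mdk in Ctx NPCs.

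Gdnf and Nrtn, both ligands of the GDNF family, had different patterns. Gdnf, listed as NM_010275, lies on chromosome 15 of GRCm38.p6 from 7810048 to 7837580. Nrtn, listed as NM_008738, lies on chromosome 17 from 56751323 to 56757548. The 250 bases before the first annotated start of each are printed because Nurr1 and Foxa2 are DNA-binding factors and the ratio of this pair varied most among the pairs of relatives. They come from RefSeq on GRCm38.p6, at chr15:7809798-7810047 on the plus strand for Gdnf and chr17:56757549-56757798 on the minus strand for Nrtn, and capitals mark the TATA box letters TATAAA.
Gdnf: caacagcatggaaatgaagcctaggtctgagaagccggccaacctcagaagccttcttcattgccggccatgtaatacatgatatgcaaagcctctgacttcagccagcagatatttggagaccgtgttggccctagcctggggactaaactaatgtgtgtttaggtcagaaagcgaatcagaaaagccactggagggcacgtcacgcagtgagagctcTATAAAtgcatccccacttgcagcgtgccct
Nrtn: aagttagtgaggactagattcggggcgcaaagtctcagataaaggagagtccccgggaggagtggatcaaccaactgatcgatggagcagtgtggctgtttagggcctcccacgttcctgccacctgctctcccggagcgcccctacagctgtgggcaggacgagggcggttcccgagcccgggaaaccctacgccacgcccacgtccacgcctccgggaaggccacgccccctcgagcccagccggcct
The TATAAA of Gdnf begins 31 bases before the start. Among 32851 windows of the same length, 12.4% hold these letters on either strand. Promoter windows were found for 6 of the 8 genes, 17 windows in all, and none holds AAAGGTCA, the element that Nurr1 binds as a monomer, or TGTTTAC, a forkhead motif, on either strand. Of all windows, 1.34% hold the former and 3.17% the latter. The absence says only that these letters are not in these windows. GC content was 50.8% in the Gdnf window and 64.8% in that of Nrtn.

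Gdnf had 865 reads in untransduced VM, 751 in Cont, 1162 in N + F, 339 in Ctx astrocytes and 11 in Ctx NPCs, an FPKM of 9.06, 7.43, 12.8, 3.53 and 0.123. N + F was the highest library and Ctx NPCs the lowest, and every step in this order was larger than counting error. Against Cont, Gdnf was higher in N + F by a log2 ratio of 0.78 (interval 0.65 to 0.91), a 1.72-fold difference that does not pass 2-fold. Against untransduced VM it was higher by 0.49 (0.36 to 0.62), and 96.0% of the 12428 genes tested had a lower ratio in that comparison. Cont and untransduced VM differed by -0.29 (-0.43 to -0.14). By region, Gdnf was 2.57-fold lower in Ctx astrocytes than in untransduced VM (log2 -1.36, -1.55 to -1.18). It was 27.6-fold lower again in Ctx NPCs than in Ctx astrocytes (log2 -4.79, -5.86 to -3.99).

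Nrtn had 181 reads in untransduced VM, 23 in Cont, 109 in N + F, 148 in Ctx astrocytes and 123 in Ctx NPCs, an FPKM of 8.28, 0.994, 5.22, 6.73 and 5.99. Only Cont stood apart. The other libraries lay within 1.58-fold of each other, and no neighbouring pair among them differed by more than counting error. N + F was 5.16-fold above Cont (log2 2.37, 1.73 to 3.11), and Cont was 8.17-fold below untransduced VM (log2 -3.03, -3.75 to -2.43). Without Cont the direction was the other one, since N + F was below untransduced VM by a log2 ratio of -0.66 (-1.02 to -0.31), and only 2.86% of genes tested had a lower ratio. In Ctx astrocytes against untransduced VM the log2 ratio was -0.30 (-0.62 to 0.02). The ependymal marker sum was lowest in Cont as well, as given above. Per length, the ratio of Gdnf to Nrtn was 1.09 in untransduced VM, 7.48 in Cont, 2.44 in N + F, 0.525 in Ctx astrocytes and 0.0205 in Ctx NPCs (interval 0.00996 to 0.0379). Nrtn was the more abundant in both Ctx libraries and Gdnf in Cont and N + F, while the interval in untransduced VM (0.931 to 1.29) included 1.

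Bdnf and Ntf3, the neurotrophins, were both highest in N + F and untransduced VM. Bdnf, listed as NM_007540, lies on chromosome 2 from 109674700 to 109727043, and Ntf3, listed as NM_001164034, on chromosome 6 from 126101412 to 126166772. Bdnf had 662 reads in untransduced VM, 515 in Cont, 679 in N + F, 466 in Ctx astrocytes and 236 in Ctx NPCs, an FPKM of 7.22, 5.31, 7.76, 5.05 and 2.74. It overlaps an annotated antisense transcript, Gm45346, and the counting is not stated to use strand, so reads of the pair cannot be told apart. None of its ratios passed 2-fold with scaling to library totals. The log2 ratio was 0.55 (0.38 to 0.72) in N + F against Cont, 0.10 (-0.05 to 0.26) in N + F against untransduced VM, and -0.88 (-1.11 to -0.65) in Ctx NPCs against Ctx astrocytes. Under the other 3 scalings the last was -1.07 to -1.05, a call as lower. N + F and untransduced VM, and Cont and Ctx astrocytes, were neighbours that did not differ by more than counting error.

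Ntf3 was the least abundant of the 8 genes in 4 of the 5 libraries. It had 32 reads in untransduced VM, 9 in Cont, 32 in N + F, 10 in Ctx astrocytes and 2 in Ctx NPCs, an FPKM of 1.05, 0.279, 1.1, 0.326 and 0.0698. The 2 reads in Ctx NPCs are below the 3 taken as measurable. Ntf3 in N + F was 3.78-fold above Cont (log2 1.92, 0.88 to 3.23) and 3.62-fold lower in Cont than in untransduced VM (log2 -1.85, -3.16 to -0.81). N + F and untransduced VM had the same read count, with a log2 ratio of 0.07 (-0.69 to 0.82). It was also 3.11-fold lower in Ctx astrocytes than in untransduced VM (log2 -1.64, -2.88 to -0.63). With so few reads, these ratios are known only to within the wide intervals given. Bdnf exceeded Ntf3 per length in every library, from 6.88 times in untransduced VM to 39.2 times in Ctx NPCs (interval 10.7 to 326).

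Manf was the steadiest of the genes and its relative Cdnf was rare. Manf, listed as NM_029103, lies on chromosome 9 from 106888753 to 106891938 and overlaps an annotated antisense transcript, 4930524O07Rik. Cdnf, listed as NM_177647, lies on chromosome 2 from 3513065 to 3526376. Manf had 2355 reads in untransduced VM, 2857 in Cont, 1680 in N + F, 1742 in Ctx astrocytes and 2430 in Ctx NPCs, an FPKM of 50.02, 57.3, 37.4, 36.8 and 54.9. With scaling to library totals, Cont and Ctx NPCs were the high pair and N + F and Ctx astrocytes the low pair. Within each pair the difference was inside counting error. Under the other scalings, Ctx NPCs lay below Cont by more than counting error, while the low pair held. The log2 ratio of Manf in Ctx NPCs against Ctx astrocytes fell there from 0.58 (0.49 to 0.67) to between 0.39 and 0.41. Manf was the only one of the 8 genes below Cont in the N + F library, with a log2 ratio of -0.62 (-0.70 to -0.53). It was lower than in untransduced VM too, by -0.42 (-0.51 to -0.33), so this direction did not rest on Cont. Neither difference passed 2-fold.

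Cdnf had 70 reads in untransduced VM, 49 in Cont, 58 in N + F, 112 in Ctx astrocytes and 33 in Ctx NPCs, an FPKM of 1.09, 0.720, 0.945, 1.73 and 0.547. It was highest in Ctx astrocytes, 1.59-fold above untransduced VM (log2 0.67, 0.23 to 1.12) and 3.14-fold above Ctx NPCs. The neighbours below untransduced VM did not differ beyond counting error. N + F and Cont were both below an FPKM of 1 and their log2 ratio was 0.39 (-0.18 to 0.97), so a difference was not detectable at this depth. Per length, Manf exceeded Cdnf 45.9 times in untransduced VM, 79.6 times in Cont, 39.5 times in N + F, 21.2 times in Ctx astrocytes and 101 times in Ctx NPCs.

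Igf2 separated the VM libraries from the Ctx libraries. Listed as NM_010514, it lies on chromosome 7 from 142650768 to 142666816, where the annotation also has Gm49394 on the same strand, the antisense Igf2os and Mir483, so its reads may include theirs. Igf2 had 2516 reads in untransduced VM, 2458 in Cont, 2865 in N + F, 272 in Ctx astrocytes and 554 in Ctx NPCs, an FPKM of 29.2, 27.0, 34.9, 3.14 and 6.85. Each VM library was above both Ctx libraries, and every step in the order was larger than counting error. It was 9.29-fold lower in Ctx astrocytes than in untransduced VM (log2 -3.22, -3.40 to -3.04), and 0.988% of the 12553 genes tested had a lower ratio. Ctx NPCs were 2.18-fold above Ctx astrocytes (log2 1.12, 0.91 to 1.34), but this call was lost under the other 3 scalings, at 0.94 to 0.96. Among the VM libraries the log2 ratios were small, 0.37 (0.29 to 0.45) in N + F against Cont and 0.25 (0.18 to 0.33) in N + F against untransduced VM. The fibroblast marker sum was also higher in each VM library than in both Ctx libraries, and 6 of 11 markers were lower and 1 higher in Ctx astrocytes than in untransduced VM (median log2 -1.30). The sum was higher in Ctx astrocytes than in Ctx NPCs, the reverse of Igf2.

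Mdk was the gene of the set with the highest FPKM in every library but Cont. Listed as NM_001012335, it lies on chromosome 2 from 91929805 to 91932297. It had 1234 reads in untransduced VM, 689 in Cont, 1087 in N + F, 1017 in Ctx astrocytes and 3665 in Ctx NPCs, an FPKM of 65.6, 34.6, 60.5, 53.7 and 207. Ctx NPCs stood above all astrocyte libraries and were 3.86-fold above Ctx astrocytes (log2 1.95, 1.85 to 2.05). Cont was the lowest, with a log2 ratio of -0.92 (-1.06 to -0.79) against untransduced VM, just short of 2-fold. N + F was above Cont by 0.81 (0.67 to 0.95) but differed from untransduced VM by less than counting error (-0.12, -0.24 to 0.00253). Per length, Mdk was 0.604 times Manf in Cont and 1.31 to 3.77 times Manf elsewhere. It was 1.28 to 2.25 times Igf2 in the VM libraries, 17.1 times in Ctx astrocytes and 30.3 times in Ctx NPCs.

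The 5 comparisons were then counted over the set. They share libraries with each other and are not independent. Of the 8 genes, 7 passed the filter on low values in N + F against Cont. Nrtn and Ntf3 were called higher, none was lower, and the median log2 ratio was 0.78, against -0.02 over all genes. Over all genes, 9.53% were called higher and 9.73% lower. Nrtn and Ntf3 passed this filter only through N + F, where they are higher, so only a higher call was possible for them. In Cont against untransduced VM, all 8 passed the filter, the same 2 genes were lower and none was higher, with a median of -0.52 against -0.01. Nrtn, Ntf3 and Cdnf passed only through the untransduced library. The share of all genes was 8.48% lower and 7.3% higher.

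In N + F against untransduced VM, all 8 genes passed the filter and none was called, with a median of -0.03 against -0.05. Over all genes, 0.668% were lower and 0.322% higher (83 and 40 genes, or 68 and 55 with TMM), so this count is near the background and no result about the set. Ctx astrocytes against untransduced VM gave 3 lower genes, Gdnf, Ntf3 and Igf2, and none higher among 8 tested, with a median of -0.48 against -0.05. Ntf3 passed the filter only through untransduced VM. In this comparison 14.4% of all genes were called, 9.89% lower and 4.49% higher. Ctx NPCs against Ctx astrocytes gave 2 lower genes, Gdnf and Cdnf, and 2 higher, Igf2 and Mdk, among 7 tested, with a median of -0.17 against 0.19. TMM, DESeq2 and upper-quartile scaling each gave 3 lower and 1 higher, with Igf2 no longer called and Bdnf called lower. Gdnf and Cdnf passed only through Ctx astrocytes. That comparison called 38% of 12623 genes, 17.9% lower and 20.1% higher, so its 4 calls among 7 genes lie in a comparison where calls are frequent.

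**Figure D3:**
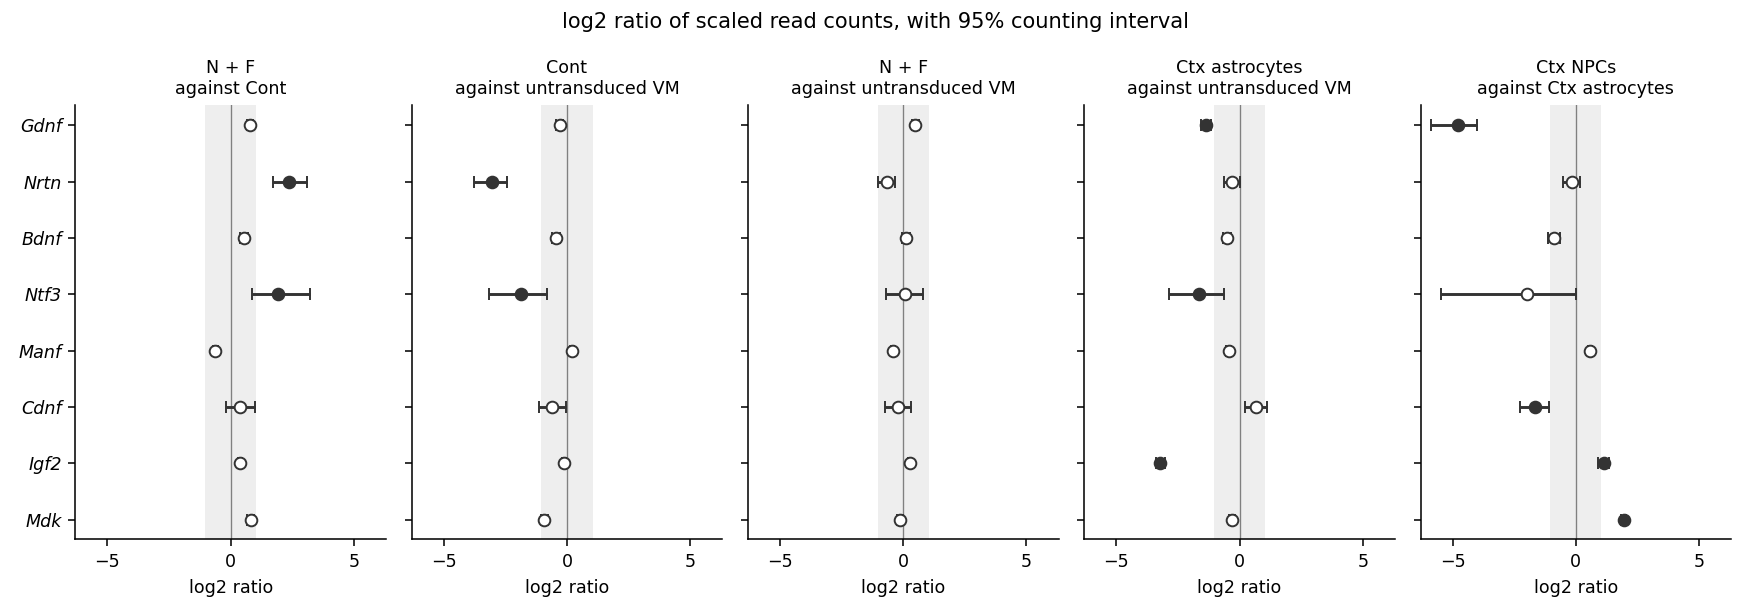
Log2 ratio of scaled read counts of the 8 genes in 5 comparisons, with exact 95% counting intervals. Filled points passed 2-fold with FPKM exceeding 1 in either library and the grey band is within 2-fold. Nrtn and Ntf3 lie outside the band in both comparisons with Cont, and no gene does in N + F against untransduced VM.

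Related ligands that are not in the set were read from a list of 24 genes. In all lists, a gene with FPKM above 1 in only 1 library of a comparison could be called only as higher there. Over all genes, 19.3%, 15.8%, 0.99%, 14.4% and 38% were called, in the order of the comparisons. List counts are to be read beside these shares, and 0 calls where the share is 0.99% are no result about a list. In N + F against Cont, 6 were higher and 7 lower of 19 tested (median log2 -0.33), led by Gdf15, a stress-induced cytokine read by neurons of the hindbrain, which was 16.1-fold higher (7724 against 533 reads). Cntf, a survival factor for motor neurons, was 7.27-fold higher (1144 against 174) and Nrg1, a ligand of ErbB receptors, 6.18-fold higher (1434 against 257). In Cont against untransduced VM, 6 were lower and 7 higher (median 0.53), with Gdf15 11.2-fold, Cntf 7.73-fold and Tgfb3 5.37-fold lower. In N + F against untransduced VM, 0 of 18 passed (median 0.05). In Ctx astrocytes against untransduced VM, 6 of 19 were lower and 5 higher. The largest were Artn, a further GDNF family ligand, 8.46-fold lower, Hgf 5.31-fold higher and Fgf1 3.50-fold higher. Artn passed the filter only through untransduced VM and Hgf only through Ctx astrocytes. In Ctx NPCs against Ctx astrocytes, 10 were lower and 2 higher, with Tgfb3 20.4-fold, Nrg1 18.2-fold and Hgf 12.9-fold lower. Hgf again passed only through Ctx astrocytes.

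Receptors of the GDNF family differed between libraries in another order than their ligands. Ret, the signalling kinase, had 405 reads in untransduced VM, 2332 in Cont, 375 in N + F, 231 in Ctx astrocytes and 23 in Ctx NPCs. In N + F it was 5.60-fold below Cont, and in Cont it was 5.43-fold above untransduced VM, so Cont was the high library where Nrtn was low. Of the 7 listed receptors, 6 were tested, and Ret was the only call in both comparisons with Cont. No receptor was called in N + F against untransduced VM, where 0.99% of all genes were, so this count is near the background. By region, Gfra2, the preferred coreceptor of neurturin, was 5.61-fold lower in Ctx astrocytes than in untransduced VM (393 against 2192 reads), and Gfra4 was 4.16-fold lower. Gfra1, the preferred coreceptor of GDNF, was 5.56-fold higher (1730 against 309). In Ctx NPCs against Ctx astrocytes, Ret was 9.20-fold, Gfra1 4.72-fold and Gfra2 2.65-fold lower, and 1 receptor was higher. Ret passed the filter only through Ctx astrocytes, and 38% of all genes were called in that comparison.

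Of 9 neurotrophin receptors and processing genes, 8 were tested in N + F against Cont. Ngfr, the p75 receptor, was 7.04-fold lower (57 against 448 reads), and Sort1, a coreceptor for proneurotrophins, was 2.14-fold higher. Cont against untransduced VM gave Ngfr 5.84-fold and Sorcs2, a relative of Sort1, 2.20-fold higher. Ngfr passed the filter only through Cont in both comparisons with Cont. N + F against untransduced VM gave 0 of 7, where 0.99% of all genes were called. In Ctx astrocytes against untransduced VM, 4 were higher and 1 lower of 7. Ntrk3, the receptor of neurotrophin-3, was 3.41-fold higher (386 against 112 reads), where its ligand was 3.11-fold lower. Sorcs2 was 3.21-fold and Pcsk6, a proprotein convertase, 3.05-fold higher. In Ctx NPCs against Ctx astrocytes both called genes were lower, Sorcs2 7.07-fold and Pcsk6 6.89-fold, and the other scalings called 3 or 4 lower.

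Several genes that handle IGF2 outside the cell differed more than Igf2 did between the VM libraries. Of 17 listed IGF receptors, binding proteins and regulators, 15 were tested in each comparison. In N + F against Cont, 4 were higher and none lower (median 0.67), and Cont against untransduced VM gave 4 lower and none higher (median -0.66). Over all genes, 9.53% were higher in the former and 8.48% lower in the latter. Pappa2 and Pappa, proteases that cut IGF binding proteins, were 14.6-fold and 5.58-fold above Cont in N + F. Igfbp2 was 4.6-fold above Cont (41830 against 10075 reads). Pappa2 passed the filter only through N + F, with an FPKM of 2.30 against 0.155 in Cont. Against the untransduced library, Cont was 7.30-fold lower in Pappa2, 4.64-fold in Igfbp2 and 4.08-fold in Pappa. Pappa2 passed here only through the untransduced library. Among the lists of ligands, receptors and ER stress genes, Pappa2 was the only gene called in N + F against untransduced VM, at 402 against 210 reads and a 2.0-fold ratio, on the edge of the 2-fold limit.

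By region, 7 of the 15 were lower and 2 higher in Ctx astrocytes than in untransduced VM (median -0.85), while TMM and DESeq2 scaling gave 4 lower and 2 higher. Igfbp4 was 5.67-fold and Igfbp6 4.94-fold lower, as was Igf2bp1, which encodes a protein that binds Igf2 mRNA, at 4.49-fold. Igf2bp1 passed the filter only through untransduced VM. In Ctx NPCs against Ctx astrocytes, 7 were lower and 5 higher (median -0.74), where 17.9% of all genes were lower and 20.1% higher. Pappa2 was 196-fold lower (4 against 942 reads), Igfbp7 54.4-fold and Igfbp2 23.4-fold lower. Pappa2 passed the filter only through Ctx astrocytes.

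**Figure D4:**
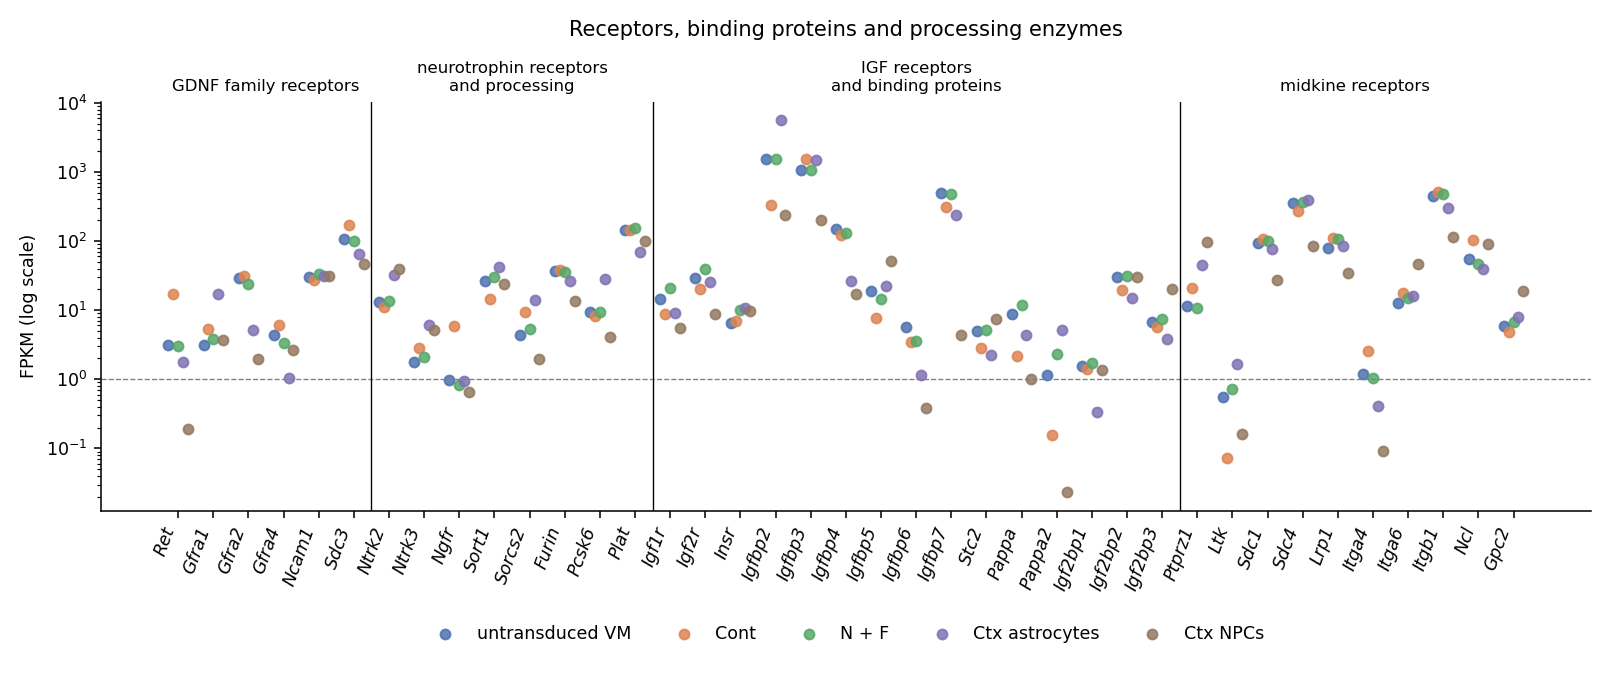
FPKM (log scale) of the receptors, binding proteins and processing enzymes with FPKM above 1 in at least 1 library, 1 point per library without replicates and a dashed line at 1. Ret and Ngfr are highest in Cont, Igfbp2 is highest in Ctx astrocytes and Pappa2 is lowest in Ctx NPCs.

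Midkine has several proposed receptors, of which 11 were listed. In N + F against Cont, 2 of 9 were lower, Itga4 (2.46-fold), an integrin subunit, and Ncl (2.24-fold), the nucleolar protein nucleolin, and none was higher. Itga4 was the only call in Cont against untransduced VM, 2.20-fold higher. None was called in N + F against untransduced VM, where 0.99% of all genes were. Ptprz1, a receptor phosphatase that binds midkine and pleiotrophin, was 4.0-fold higher in Ctx astrocytes than in untransduced VM (7870 against 1957 reads). Ltk was 2.98-fold higher and Itga4 2.83-fold lower. Ltk passed the filter only through Ctx astrocytes and Itga4 only through untransduced VM. In Ctx NPCs against Ctx astrocytes, 5 were lower and 4 higher of 9, where 38% of all genes were called. Ltk was 10.02-fold and Sdc4, a heparan sulfate proteoglycan, 4.62-fold lower and Itga6 2.89-fold higher. Ltk again passed only through Ctx astrocytes.

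Genes of ER stress, the state in which MANF is induced, were listed as 18 genes. Of these, 1 was called in N + F against Cont, Kdelr3, which returns escaped proteins to the ER, 2.07-fold higher, while the median log2 ratio was -0.37, in the direction of Manf. In Cont against untransduced VM 0 of 18 were called, with a median of 0.23 and Manf at 0.20. N + F against untransduced VM also gave 0 of 18, and its median of -0.01 became 0.04 with TMM normalization and 0.01 with DESeq2 size factors, while Manf was at -0.42. In Ctx astrocytes against untransduced VM the median and the ratio of Manf were both -0.44, and 1 gene was called, Sdf2l1, a chaperone cofactor, 3.37-fold lower. In Ctx NPCs against Ctx astrocytes, Sdf2l1 was 4.39-fold and Atf4, a stress transcription factor, 3.17-fold higher, Kdelr3 was 4.20-fold lower, and 2 genes in all were lower and 2 higher.

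The genes whose pattern over the 5 libraries was most like that of each trophic factor were found among 13068 genes by the root mean square difference of log2 CPM, after each gene was centred on its own mean. Those of Gdnf were Aebp1 (0.19), which encodes an extracellular matrix protein, Car9 (0.21), a carbonic anhydrase, and Ppl (0.26). Those given for Nrtn were Cnmd (0.29) and Armc3 (0.31). Zfp217, Stbd1 and Tpra1 lay within 0.06 of Bdnf. Ntf3 was nearest to Pparg (0.06), a nuclear receptor, Fgfr4 (0.08) and Slit2 (0.17), an axon guidance ligand, and all 3 were lower in Cont and in both Ctx libraries. Manf was nearest to 1810009A15Rik (0.03), Cope (0.04), a coat protein of Golgi vesicles, and Commd5 (0.05). Cdnf was nearest to Gdpd5 (0.07), Myl6b (0.08) and Ntn4 (0.10). Igf2 was nearest to Areg (0.23), an EGF receptor ligand, Matn2 (0.23), a matrix protein, and Adh7 (0.28), and Mdk to Mkrn3 (0.11), Taf7 (0.14) and Efs (0.14). With 5 libraries, many genes can share a pattern, and these distances describe the libraries only.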

How the data were processed

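RNA-seq was done by the authors on 5 libraries, 1 per condition. Per the paper's methods, the authors trimmed low-quality bases (limit 20), aligned with STAR to GRCm38/mm10 and counted reads on RefSeq exons (Release 105) with HTSeq. The submitters' processing notes name mm9 instead, with bcl2fastq 1.8.4, STAR, HTSeq and DESeq. The deposited counts are raw reads of each transcript, and the deposited FPKM is the count scaled by the authors to transcript length and library size, which recomputing gave back within a relative difference of 4.09e-05. The row of totals was left out. Of 20178 transcripts, 19997 were paired with a symbol through RefSeq accessions and 181 were not. No pair of libraries was identical.

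Counts were scaled to library totals, 0.5 reads were added and log2 ratios were taken, with exact 95% intervals. Named genes were all members, the 3 largest called ratios of each list and comparison, and the 3 nearest profiles of each member among genes with at least 20 reads on average. One of these profiles is not reported here. The members, lists and markers were chosen with earlier results of these data known. The calculations were tested on simulated data. Alternative scalings came from DESeq2 1.42.0 and edgeR 4.0.16 in R 4.3.3. The rest ran in Python 3.11.15 with pandas 2.3.3, numpy 2.4.6, matplotlib 3.10.9 and scipy 1.17.1. Alternatives were 3 other scalings, 5 reads added, other filters on FPKM, and limits of 1.5-fold and 2.6-fold.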

Additional observations from a re-analysis of the deposited data

How the results depend on the processing

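Scaling by TMM, DESeq2 size factors or upper quartiles, or adding 5 reads, left the number of trophic factor genes called the same in each direction in 4 of the 5 comparisons. The 3 scalings gave, in Ctx NPCs against Ctx astrocytes, 3 lower and 1 higher in place of 2 and 2, since Igf2 (0.94 to 0.96) lost its call and Bdnf (-1.07 to -1.05) gained one. Of 160 single log2 ratios, 154 stayed within their counting interval, 6 moved and 0 were reversed. The 6 were Manf (0.39 to 0.41) and Mdk (1.76 to 1.78) in Ctx NPCs against Ctx astrocytes, where these scalings shifted the median of all genes by -0.18 to -0.17.

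With FPKM above 1 required in both libraries, the calls of Nrtn and Ntf3 dropped out, since each was below 1 in Cont, which left 0 genes in N + F against Cont and 0 in Cont against untransduced VM. It left 2 in Ctx astrocytes against untransduced VM, where Ntf3 lost its call, and 2 in Ctx NPCs against Ctx astrocytes. Over all genes it left 1323 in Cont against untransduced VM, 62 in N + F against untransduced VM and 1169 in Ctx astrocytes against untransduced VM. At 1.5-fold, 5 trophic factor genes were called in N + F against Cont, 4 in Cont against untransduced VM and 1, Nrtn, in N + F against untransduced VM. In the order of the report's comparisons, all genes called at 1.5-fold numbered 4818, 4066, 833, 3447 and 7434, and without a filter on low values 4841, 4333, 1779, 4078 and 7448. At 2.6-fold they numbered 1472, 1246, 34 and 1156 in the comparisons other than that of the NPCs. The trophic factor genes called at 2.6-fold numbered 2, 2, 0, 2 and 3 in the same order, with the NPCs last. Gdnf (2.57-fold) lost its call in Ctx astrocytes against untransduced VM, and Igf2 (2.18-fold) in Ctx NPCs against Ctx astrocytes.

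No paired analysis was possible because each condition has 1 library. No replicate was left out for the same reason. Depth limits Ntf3, with at most 32 reads, Cdnf, with at most 112, and Nrtn in Cont, with 23.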
